A study of Sus scrofa with 18 samples.

Results

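The transcripts followed on 18 arrays of pig heart were those of the erythroid genes ALAS2, AHSP, HBM, HBB and HBE1 and of FAM46C, a poly(A) polymerase. These are 6 of the 6765 genes that the probe table names on the array through a probe set of their own. It assigns 7 of 24123 probe sets to exactly 1 of the 6 symbols, 1 each for ALAS2, AHSP, HBM, HBB and HBE1 and 2 for FAM46C, and none of the 7 is shared with another symbol. The genes were chosen with the difference between failure and baseline in these arrays already known. Their differences in that contrast are therefore a description and carry no p-value.

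RNA was taken from the free right ventricular wall of 9 pigs, a mixed breed out of Hampshire, Yorkshire and Swedish Landrace. Each pig gave 1 sample in failure, after ligation of coronary arteries on that wall, and 1 at baseline, so that 9 failure arrays were paired with 9 baseline arrays. In pigs 6, 8, 9, 11, 12 and 13 (label set 1) the failure sample is labelled with 120 min of ischemia. In pigs 5, 10 and 14 (label set 2) the labels give a weight of 30 to 40 kg and define failure by a right atrial pressure over 20 mmHg. All failure samples carry the ligation, and none of the arrays is of a ventricle sampled at the later time without it, so that ligation and the time and handling that went with it cannot be told apart. The 2 samples of a pig were taken 1 after the other from the same ventricle, and the labels used here give no age.

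Circulating red cells lose their nucleus but, as reticulocytes, still carry the messenger RNA of late erythroid development. ALAS2 makes the first intermediate of haem in erythroid cells, alpha-like and beta-like globin chains bind that haem, and AHSP holds free alpha chains until they pair. In a piece of ventricle such transcripts can come with the blood that the tissue holds. In bulk tissue, fewer cells of a type and less RNA per cell cannot be told apart.

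The values are log2 intensities per probe set as the authors deposited them, and a difference of 1 stands for a factor of 2. They lay between 2.1 and 15.17, with array medians between 5.59 and 5.66. The 10 ventricular muscle markers had a mean level of 13.38 to 13.96 on the failure arrays and 13.51 to 13.93 on the baseline arrays, so the labelled tissue's own genes were at the top of the intensity range. The 3' minus 5' difference of the GAPDH control probe sets, which grows as RNA degrades, was higher in failure in 6 of 9 pigs (0.237 ± 0.556, SD, n = 9), which an exact two-sided sign-flip test put at p = 0.246. Pig 5 stood apart in it, with 3.55 in failure and 2.61 at baseline.

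The deposited values do not all have the same number of decimals. Of the 23935 tested probe sets, 1467 have at most 2 decimals on all 18 arrays, and 1431 of these (97.55%) have p under 0.05 in an unmoderated paired test of failure against baseline. Of the other 22468 probe sets, 0 do (387 of them have an unadjusted p under 0.05 in limma). ALAS2, AHSP, HBM, HBE1 and the brighter FAM46C probe set have at most 2 decimals, while HBB and the dimmer FAM46C probe set have more. The sources used here do not say how the probe sets with 2 decimals came about. Their part in the results was not tested. Rounding every value to 2 decimals cannot test it, because the member probe sets with at most 2 decimals stay as they are. HBB and the dimmer FAM46C probe set move only by the rounding itself.

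ALAS2, the erythroid form of 5-aminolevulinate synthase, was lower in failure in every pig. Its failure levels ran from 6.18 to 8.52 with a median of 7.38, against 7.71 to 9.88 with a median of 8.63 at baseline. The groups overlapped, with 5 of 9 failure arrays below the lowest baseline array and 5 of 9 baseline arrays above the highest failure array. The mean was 7.30 ± 0.86 in failure and 8.57 ± 0.79 at baseline (SD, n = 9), a log2 change of -1.27 (SE 0.14 from limma's pooled spread) or 2.41-fold lower. Pig by pig the change was -1.22, -1.64, -1.82, -1.25, -1.56, -1.63, -1.20, -0.99 and -0.11 in pigs 5, 6, 8, 9, 10, 11, 12, 13 and 14. Pig 14 was thus far from the other 8, whose changes all lay between -1.82 and -0.99.

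AHSP, the chaperone of free alpha globin, was also lower in 9 of 9 pigs. The probe table gives this probe set a gene ID that differs from the RefSeq ID of AHSP, and the probe table's name was kept. Its levels ran from 4.39 to 6.85 with a median of 5.58 in failure, against 6.05 to 8.62 with a median of 6.77 at baseline. Of the failure arrays 6 lay below the lowest baseline array, and 4 baseline arrays lay above the highest failure array. The means were 5.78 ± 0.89 in failure and 6.97 ± 0.82 at baseline (SD, n = 9), 2.29-fold lower (log2 change -1.19, SE 0.18). The change differed more between pigs than that of ALAS2, from -2.14 in pig 6, -2.03 in pig 11 and -1.83 in pig 8 to -0.07 in pig 14.

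HBM encodes mu globin, an alpha-like chain of the alpha cluster. Its levels ran from 6.23 to 7.67 with a median of 6.51 in failure, against 6.94 to 9.17 with a median of 7.62 at baseline. Failure was lower in every pig, although the groups overlapped. The means were 6.85 ± 0.59 in failure and 7.68 ± 0.71 at baseline (SD, n = 9), a log2 change of -0.83 (SE 0.12) or 1.78-fold lower, with the change in single pigs between -1.72 in pig 8 and -0.04 in pig 14.

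HBB, the adult beta globin chain, did not share this pattern. Its levels ran from 6.75 to 8.38 with a median of 8.0 in failure, against 7.19 to 8.73 with a median of 8.14 at baseline. The groups overlapped, with 1 of 9 failure arrays below the lowest baseline array and 3 of 9 baseline arrays above the highest failure array. The means were 7.82 ± 0.52 in failure and 8.06 ± 0.46 at baseline (SD, n = 9), a log2 change of -0.24 (SE 0.10). HBB was lower in 6 of 9 pigs, with changes from -0.78 in pig 13 and -0.73 in pig 12 to 0.32 in pig 11. In the RefSeq gene table of assembly Sscrofa11.1, HBB and HBE1 lie among other beta-like loci, and whether the HBB probe set also binds transcripts of a near-identical neighbour was not tested.

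HBE1, the epsilon chain that embryonic red cells use, gave a low signal close to the bottom of the intensity range. Its levels ran from 2.94 to 3.68 with a median of 3.49 in failure, against 3.50 to 4.14 with a median of 3.82 at baseline. Of the 7 member probe sets it showed the least overlap, since 7 of 9 baseline arrays lay above the highest failure array and 6 of 9 failure arrays below the lowest baseline array. The means were 3.36 ± 0.24 in failure and 3.85 ± 0.22 at baseline (SD, n = 9), a log2 change of -0.49 (SE 0.09) in the same direction in 9 of 9 pigs, or 1.40-fold lower.

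FAM46C, a cytoplasmic poly(A) polymerase that is recurrently mutated in human multiple myeloma, has 2 probe sets that did not give the same result. The brighter one ran from 5.0 to 6.38 with a median of 5.52 in failure, against 5.39 to 7.55 with a median of 6.21 at baseline. It was lower in 9 of 9 pigs, with means of 5.58 ± 0.40 in failure and 6.30 ± 0.60 at baseline (SD, n = 9), a log2 change of -0.72 (SE 0.10). The dimmer one ran from 2.76 to 3.22 in failure and from 2.67 to 3.23 at baseline, with means of 2.98 ± 0.15 and 2.98 ± 0.17 for failure and baseline (SD, n = 9). Its change of 0.01 (SE 0.05) was negative in 5 pigs and positive in 4. The level of this dimmer probe set lay at percentile 7.3 of all tested probe sets, close to the bottom of the intensity range. Whether it detects the transcript in this tissue was not tested. The mean of both probe sets changed by -0.36.

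**Figure D1:**
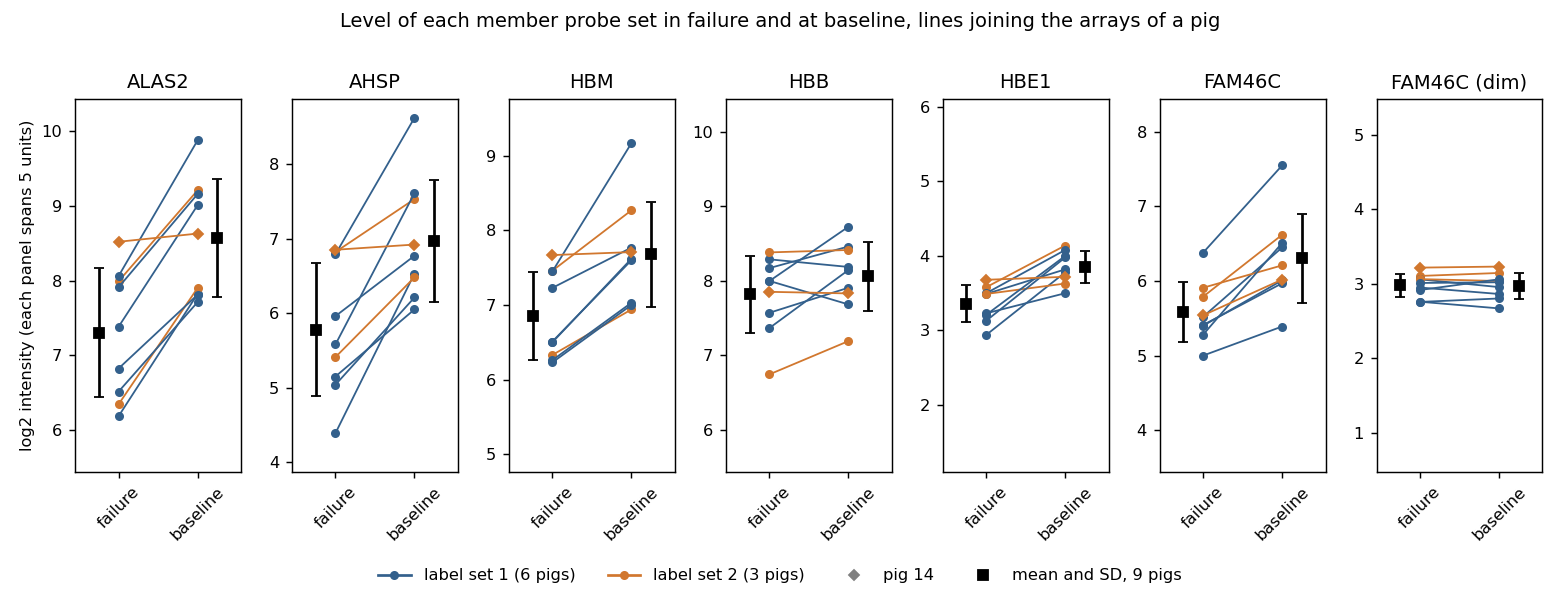
Log2 intensity of each member probe set on the 9 failure arrays (left) and the 9 baseline arrays (right), with a line for each pig, colour for the label set, a diamond for pig 14 and black squares with bars for mean and SD; every panel spans the same 5 log2 units. Lines rise toward baseline in 9 of 9 pigs for ALAS2, AHSP, HBM, HBE1 and the brighter FAM46C probe set, in 6 of 9 for HBB, and stay close to level for the dimmer FAM46C probe set.

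Across all 23935 tested probe sets, 16 (0.0668%) passed limma's test of failure against baseline at an adjusted p under 0.05, 5 higher and 11 lower (0.0460%), and 4 of the 7 member probe sets are among the 11 (ALAS2, AHSP, HBM and the brighter FAM46C). All 16 belong to the probe sets with at most 2 decimals. Those hold every probe set with p under 0.05 in the unmoderated paired test, so this is no separate result. A lower value in 9 of 9 pigs was found in 76 probe sets (0.318%), of which 5 are members. With pig as a random effect instead of a block, AHSP, HBM and FAM46C lost the call and HBE1 gained it. With trend and robust eBayes, or with the GAPDH covariate, AHSP and HBM lost it, and without any block for pig all 4 did. Since the genes were chosen from this contrast, nothing is read from these counts. The median change of all tested probe sets was 0.00 and 11922 of 23935 were below 0. HBB lay at the edge of the change seen for probe sets at large, whose 1st percentile was -0.24.

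Within a pig the size of the change differed between the genes. ALAS2 fell further than HBM, HBB and HBE1 in 9 of 9 pigs, by a mean of 0.44 ± 0.29, 1.03 ± 0.65 and 0.78 ± 0.48 log2 units (SD, n = 9). Against AHSP it fell further in 6 of 9 pigs, with a mean difference of -0.08 ± 0.36 that is smaller than its spread. The order on the array is not an order of transcript loss, because probe sets differ in how strongly they respond.

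**Figure D2:**
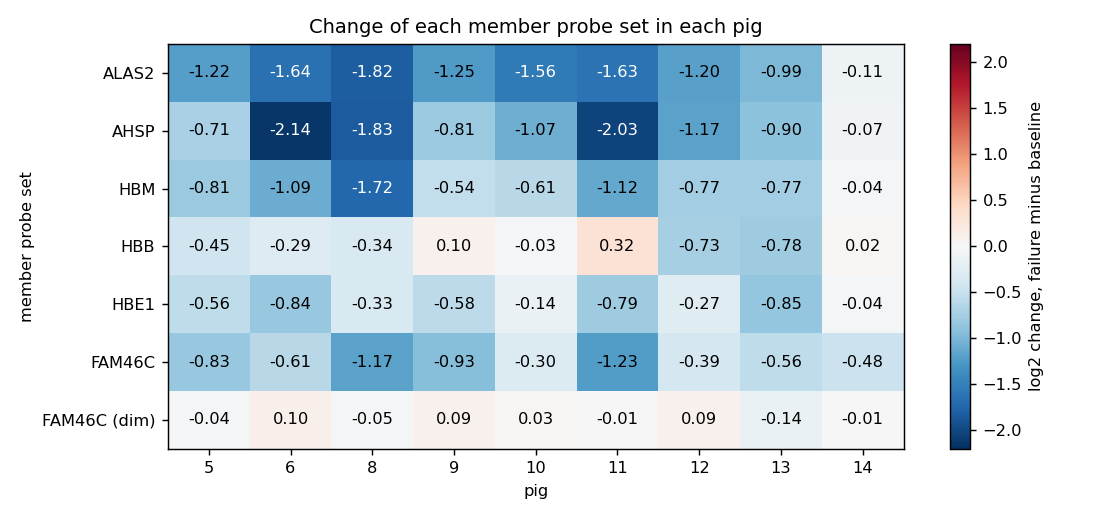
Log2 change (failure minus baseline) of the 7 member probe sets (rows) in each pig (columns), with blue for lower and red for higher in failure and the value in each cell. Pig 14 is near 0 in every row except the brighter FAM46C probe set (-0.48), whereas pig 8 reaches -1.82 for ALAS2, -1.83 for AHSP and -1.72 for HBM.

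The level of these transcripts differed widely between animals before ligation. At baseline ALAS2, AHSP and HBM spanned 2.17, 2.57 and 2.23 log2 units between the lowest and the highest pig. The SD of ALAS2, AHSP and HBM over the 9 baseline arrays lay at percentiles 99.2, 99.3 and 98.7 of all tested probe sets, while that of HBE1 lay at percentile 56.9. Pig 8 was the highest at baseline for all 3 genes. Pigs 12 and 13 were near the bottom for all 3, with baseline means over the 3 genes of 6.97 and 6.96. In failure pig 14 was the highest for all 3 genes, with a mean of 7.68, close to its baseline mean of 7.75.

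At baseline the same pigs were high or low in ALAS2, AHSP, HBM and the brighter FAM46C probe set. Over the 9 baseline arrays ALAS2 correlated with AHSP (Pearson r 0.907, Spearman rho 0.883), with HBM (r 0.891, rho 0.883) and with the brighter FAM46C probe set (r 0.881, rho 0.967). Without pigs 8 and 12, the 2 farthest from the ALAS2 median, these 3 values of r were 0.825, 0.794 and 0.839. Within the 6 pigs of label set 1 they were 0.900, 0.868 and 0.927. The correlations are given as descriptions over arrays that the genes share.

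HBB and HBE1 did not follow the others in the same way. Baseline HBB ran opposite to ALAS2 (r -0.693, rho -0.683), AHSP (r -0.634, rho -0.700) and HBE1 (r -0.717, rho -0.667). Without the 2 pigs farthest from the median of the other gene, r was -0.739 against ALAS2 (without pigs 8 and 12) and -0.845 against AHSP (without pigs 8 and 11). Against HBE1 r was -0.308 without pigs 5 and 12, the 2 farthest in HBB, so that this relation rests on those pigs. Baseline HBE1 had a weaker positive relation with ALAS2 (r 0.546, rho 0.633). The dimmer FAM46C probe set was unrelated to the brighter one at baseline (r 0.012, rho 0.050).

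The changes of ALAS2, AHSP and HBM also went together over the 9 pigs. The change of ALAS2 correlated with that of AHSP with r 0.853 (rho 0.767) and with that of HBM with r 0.832 (rho 0.717), and AHSP with HBM with r 0.834 (rho 0.717). The relation of ALAS2 and HBM rests in part on pigs 8 and 14, without which r was 0.518, whereas that of ALAS2 and AHSP was 0.778 without the same pigs. The change of the brighter FAM46C probe set was less closely tied to that of ALAS2 (r 0.442, rho 0.533), and that of HBB was not (r -0.048, rho -0.283).

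**Figure D3:**
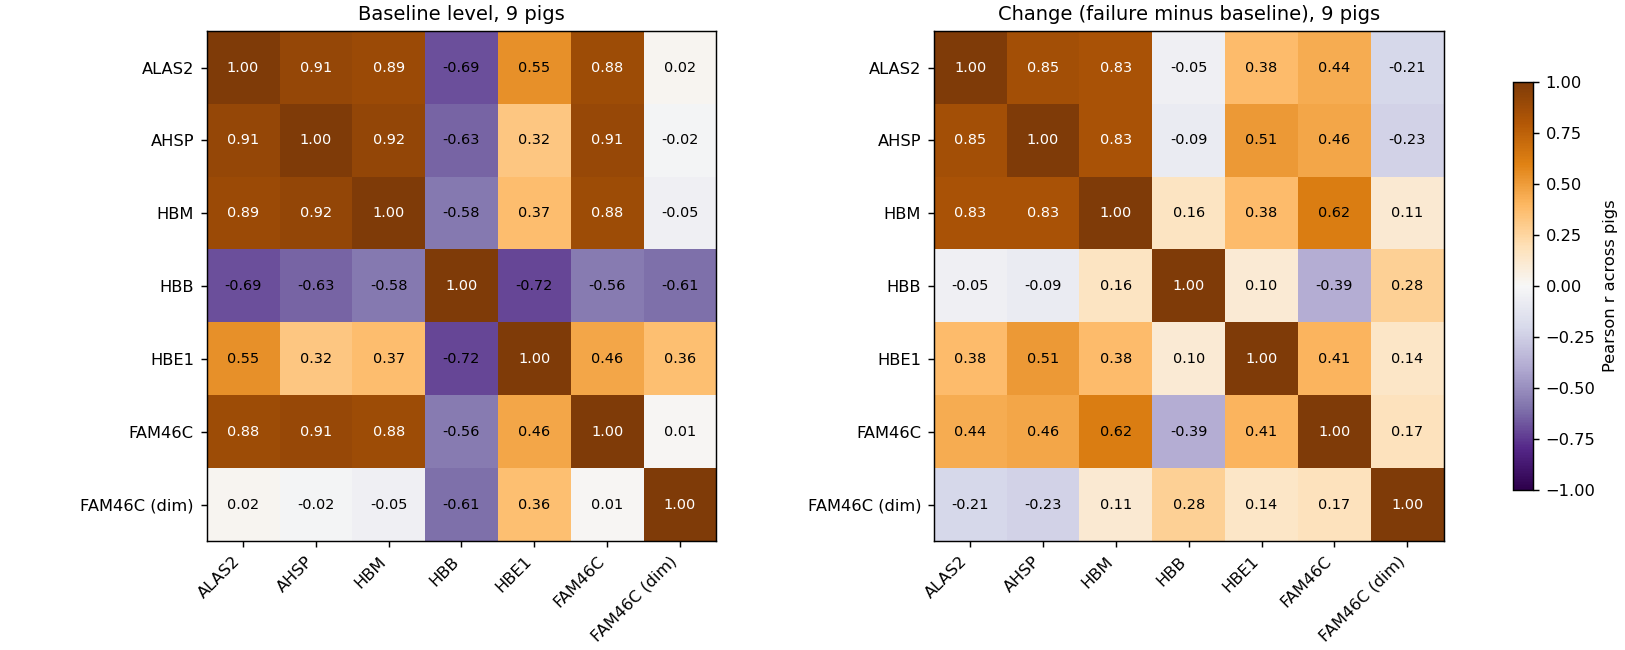
Pearson r between member probe sets across the 9 pigs for baseline levels (left) and for changes, failure minus baseline (right), with orange for positive and purple for negative r. ALAS2, AHSP, HBM and the brighter FAM46C probe set form a block of r between 0.88 and 0.92 at baseline, while HBB is negative against every other probe set.

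How far the rank of the pigs was kept between the paired samples differed between the probe sets. Failure and baseline levels of ALAS2 correlated with r 0.813 (rho 0.700) and those of HBM with r 0.762 (rho 0.817). For the brighter FAM46C probe set r was 0.844 but 0.208 without pigs 8 and 12, so that this relation rests on those 2 pigs. HBE1 showed little such relation (r 0.106, rho 0.159).

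The changes were set beside the change of the GAPDH difference. Pigs with a larger rise of the GAPDH 3' minus 5' difference in failure had a lower HBB level in failure relative to baseline (r -0.850, exact permutation test, two-sided, p = 0.00408, adjusted p = 0.0283 over 63 relations). The 63 include the correlations between members and between paired levels, whose small p-values lower this adjusted p. It was not computed over the GAPDH relations alone, which were chosen after the data were seen, so no pass is claimed for HBB. Spearman's rho was -0.933 (exact permutation test, adjusted p = 0.0236), and r was -0.838 without pigs 5 and 13 and -0.866 within label set 1. With this difference as a covariate the HBB change was -0.11, against -0.24 without it. For the other probe sets r ranged from -0.583 for the dimmer FAM46C probe set to 0.152 for the brighter one, with -0.050 for ALAS2. Their adjusted p over the same 63 relations lay between 0.264 and 0.961 (exact permutation tests). At baseline HBB was likewise lower where the GAPDH difference was higher (r -0.722, rho -0.450, exact permutation test, adjusted p = 0.113 for r), but r was 0.178 without pigs 5 and 11, so that this relation rests on those 2 pigs. With the covariate ALAS2 changed by -1.26, AHSP by -1.20 and HBM by -0.78, and AHSP and HBM no longer passed limma's threshold. The part of RNA quality in the change of HBB or of the other genes was not tested.

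**Figure D4:**
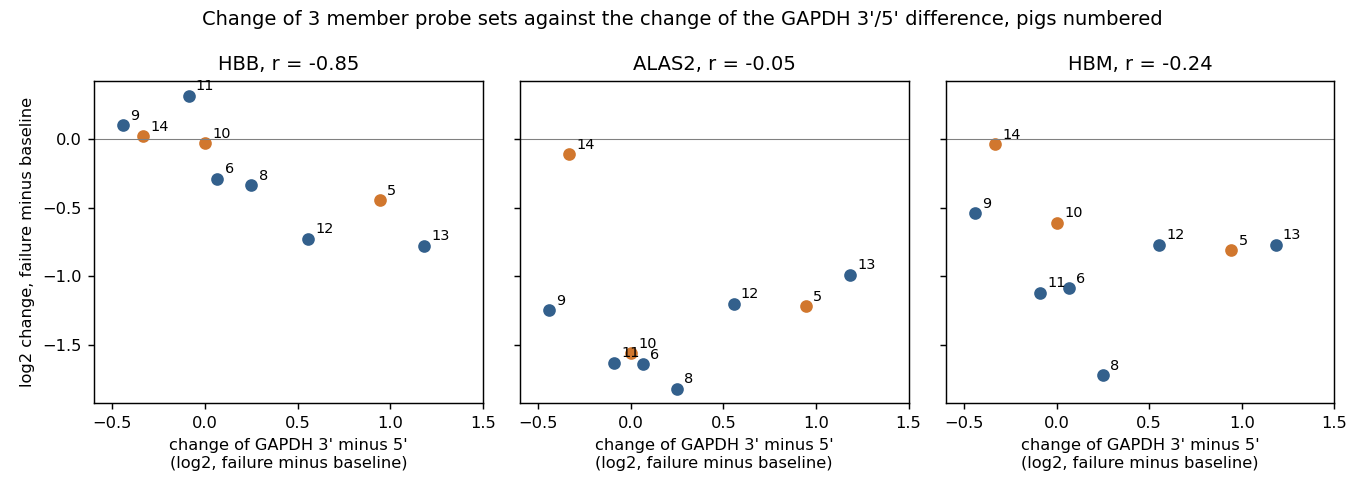
Log2 change (failure minus baseline) of HBB, ALAS2 and HBM against the change of the GAPDH 3' minus 5' difference in the same pig, with numbered points coloured blue for label set 1 and orange for label set 2. HBB falls along a line (r -0.85) that ALAS2 (r -0.05) and HBM (r -0.24) do not follow.

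The response was then compared between the label sets, a contrast that did not choose the genes. ALAS2 changed by -0.96 ± 0.76 (SD, n = 3) in the pigs of set 2 and by -1.42 ± 0.32 (SD, n = 6) in those of set 1. AHSP changed by -0.62 ± 0.51 in set 2 and -1.48 ± 0.59 in set 1, a difference of 0.86 (95% interval 0.20 to 1.53, limma adjusted p = 0.867). HBM changed by -0.49 ± 0.40 in set 2 and -1.0 ± 0.41 in set 1, a difference of 0.52 (interval 0.01 to 1.02, limma adjusted p = 0.867). HBE1 changed by -0.25 ± 0.28 in set 2 and -0.61 ± 0.26 in set 1. The difference, set 2 minus set 1, was positive for 6 of the 7 probe sets, and none passed (limma, adjusted p from 0.867 to 0.996).

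No probe set on the array passed that test (0 of 23935, 0.00%, with 1356 at an unadjusted p under 0.05). The difference depended on single pigs. Without pig 14 the difference was 0.03 for ALAS2, 0.59 for AHSP, 0.29 for HBM and 0.05 for HBB, against 0.46, 0.86, 0.52 and 0.13 with it. Without pig 10 it was 0.76 for ALAS2 and 0.16 for the brighter FAM46C probe set (0.28 with all pigs), and without pig 5 it was 0.43 for that probe set. For HBB it ranged from 0.03, 0.04 and 0.07 without pigs 13, 12 and 10 to 0.21, 0.25 and 0.28 without pigs 9, 11 and 5. Before ligation the label sets showed no difference in these genes that passed (limma, adjusted p from 0.358 to 0.995), with ALAS2 at 8.58 ± 0.66 in set 2 and 8.57 ± 0.91 in set 1 (SD, n = 3 and 6). In that comparison 5 of 23935 probe sets passed (0.0209%), and between 0 and 2 when any 1 pig was left out.

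Of the other genes of red cells, haem and iron, 42 of 102 listed had a named probe set, in 7 lists. None passed limma's test of failure against baseline (0 of 42). An unadjusted p under 0.05 in limma was found for 4 of 42, against 1470 of all 23935 tested probe sets. Of the 42, 22 had a change below 0, close to the share of all tested probe sets. Of the 4 with an unadjusted p under 0.05, ABCB6, EPB41 and STRADB have at most 2 decimals and FAM46A has more.

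Among 8 other genes of haem synthesis, 5 had a change below 0, with a median of -0.02. ABCB6, a porphyrin transporter, had the lowest value, with a level of 6.72 ± 0.25 in failure and 6.92 ± 0.32 at baseline (SD, n = 9, change -0.20, limma adjusted p = 0.645). PPOX, the oxidase that makes protoporphyrin, had the highest at 0.07 (adjusted p = 0.922). ALAS1, the form of the synthase that other tissues use, changed by -0.11 (SE 0.06, adjusted p = 0.853). FECH, which inserts iron into the ring, changed by -0.05 (SE 0.07, adjusted p = 0.952).

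Of the other globins only CYGB and NGB, globins of fibroblast-like and nerve cells, were measured, with changes of -0.03 (adjusted p = 0.972) and 0.00 (adjusted p = 0.999). The alpha globin genes were not analysed here. Among 4 red cell membrane genes, 1 had a change below 0. This was EPB41, protein 4.1 of the membrane skeleton, with 7.54 ± 0.17 in failure and 7.81 ± 0.21 at baseline (SD, n = 9). It was lower in 9 of 9 pigs without passing (change -0.26, SE 0.05, limma adjusted p = 0.160), and its second probe set had a change of -0.13. RHCE, a blood group antigen, had the highest value at 0.04.

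Among 9 genes of the red cell cytosol and late maturation, 5 had a change below 0. STRADB, a pseudokinase partner of LKB1, had the lowest, with 10.90 ± 0.54 in failure and 11.19 ± 0.37 at baseline (SD, n = 9). It was lower in 8 of 9 pigs (change -0.29, SE 0.08, limma adjusted p = 0.497), and heart muscle also expresses it. SELENBP1, a selenium-binding protein, had the highest at 0.04. Among 5 erythroid regulators, 3 had a change below 0, from BCL11A at -0.10, a repressor of fetal globin in human red cells, to KLF1 at 0.04, the activator of adult beta globin. TFRC, the transferrin receptor, changed by 0.01 (SE 0.06, adjusted p = 0.993).

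Among 13 genes of haem breakdown, scavenging and iron, 7 had a change below 0. HMOX1, the inducible haem oxygenase, had the highest value, with 7.46 ± 0.52 in failure and 7.26 ± 0.53 at baseline (SD, n = 9). It was higher in 7 of 9 pigs without passing (change 0.20, SE 0.11, limma adjusted p = 0.864). HPX, the plasma haem scavenger hemopexin, had the lowest at -0.13. FAM46A, a relative of FAM46C, went the other way from it, with 8.84 ± 0.51 in failure and 8.60 ± 0.41 at baseline (SD, n = 9, change 0.25, SE 0.10, limma adjusted p = 0.722).

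**Figure D5:**
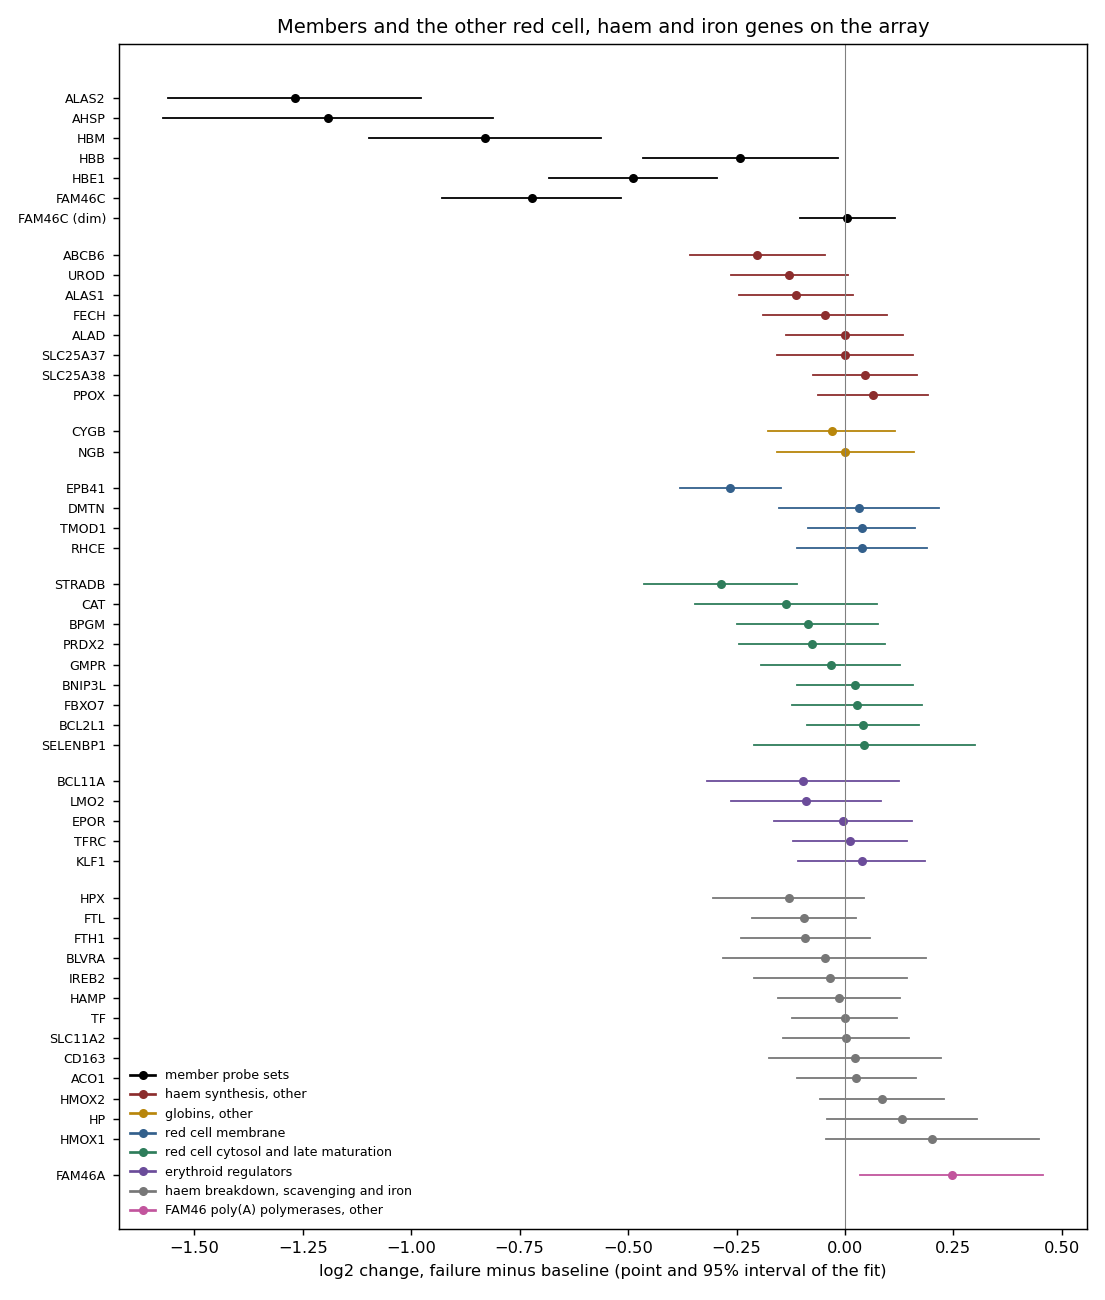
Log2 change (failure minus baseline) with the 95% interval of the fit for the 7 member probe sets (black, a description with no test) and for 42 other genes of red cells, haem and iron, 1 probe set each, coloured by list. The changes of the other genes lie between -0.29 (STRADB) and 0.25 (FAM46A), whereas ALAS2, AHSP, HBM and the brighter FAM46C probe set lie between -1.27 and -0.72.

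Markers of the other cells that blood or vessel walls bring were read on the same arrays. Lymphocyte markers (9 of 12 measured) had a mean level of 4.37 to 4.70 in failure and 4.49 to 4.78 at baseline, lower in 8 of 9 pigs. Of the 9, 6 had a change below 0, from -0.49 for CD8A (limma adjusted p = 0.326) and -0.36 for KLRK1 (adjusted p = 0.460), named after their values were seen, to 0.02 for CCR7, and the median was -0.10. CD8A and KLRK1 are the lymphocyte markers with at most 2 decimals, and CD8B, the partner chain of CD8A, changed by 0.0050. Platelet markers (4 of 10 measured) ran from 5.11 to 5.45 in failure and 5.203 to 5.65 at baseline, lower in 6 of 9 pigs. Neutrophil markers (5 of 10 measured) ran from 3.79 to 4.30 in failure and 3.76 to 4.06 at baseline, lower in 4 of 9 pigs.

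Plasma cell markers (4 of 9 measured) ran from 6.32 to 6.64 in failure and 6.22 to 6.64 at baseline, and monocyte and macrophage markers (5 of 9) from 5.75 to 6.33 in failure and 5.60 to 6.08 at baseline. Endothelial markers (7 of 7) ran from 6.87 to 7.75 in failure and 6.95 to 7.69 at baseline. No marker in these lists passed the test of failure against baseline, and their part in the changes of the member probe sets was not tested. The log2 scale has no 0 for an absent transcript, and the defining markers S100A8 and S100A9 of neutrophils, with means of 4.06 and 3.56 over all arrays, lay near the low end of the range.

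The named genes whose baseline level was most like that of ALAS2 were found over the 9 baseline arrays by Pearson r, with 10 named. They were B2M, FZD6, PJA1, MARCH2, ARHGEF37, OAZ1, SEC11A, UBE2O, SERPINI1 and NTAN1, with r from 0.941 to 0.891. At or above the r of the last of them were 24 probe sets, of which 13 are unnamed and 1 is a member. With only 9 arrays and 23935 probe sets, some values of r this high arise by chance. How many would do so was not tested, so the list is a description. The B2M probe set, for the light chain of MHC class I, had a level of 12.19 ± 0.93 in failure and 13.46 ± 0.50 at baseline (SD, n = 9), lower in 8 of 9 pigs. The other 8 probe sets of B2M had changes from -0.23 to 0.17.

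B2M, OAZ1 and NTAN1 are the 3 of these 10 with at most 2 decimals. OAZ1, the antizyme that limits polyamine synthesis, stood at 13.62 ± 0.69 in failure and 14.41 ± 0.28 at baseline (SD, n = 9) and was lower in 9 of 9 pigs. Its other probe set changed by -0.14. NTAN1, an asparagine amidase, changed by -0.19, also in 9 of 9 pigs. The other 7 genes had changes between -0.12 and 0.07.

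By the pattern of changes over the 9 pigs the 10 named genes most like ALAS2 were IFRD2, CGA, TCEA3, PPTC7, RAB40C, FAM107B, LOC100515508, LPAR2, MTMR7 and BAG5, with r from 0.903 to 0.831. Their own mean changes lay between -0.25 for MTMR7 and 0.14 for LPAR2, and no gene was on both lists of 10. Of the 30 probe sets at or above the r of the last of them, 18 are unnamed and 2 are members. Here too, how many would reach such an r by chance was not tested.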

How the data were processed

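The authors deposited 1 table of log2 intensities per probe set, used as deposited. Per the labels' protocols, Trizol and then RNeasy columns were used to obtain total RNA, and biotin-labelled cRNA was made with the GeneChip 3' IVT Express kit. The submitters' processing notes name Partek; how background was corrected and probes were normalized and summarized is not given in the sources used here. Array medians were near-equal, so any scaling between arrays would hide a shift of most transcripts. The precision is limited by the number of animals.

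The 188 control probe sets were left out. Failure was compared with baseline by limma 3.58.1 under R 4.3.3, with a block for pig in lmFit, eBayes, two-sided tests and Benjamini-Hochberg adjustment over 23935 probe sets at a threshold of 0.05; an interaction in that model tested whether the label sets differed in response, and their baseline levels were compared on the baseline arrays alone. Simulated data with known changes were used to test the fits. The pairing comes from the pig numbers of the labels. Once group means were taken out, same-pig samples correlated at r 0.449 to 0.750, and 9 of 9 baseline samples matched their own pig best.

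The members and lists were chosen with earlier results of these data known. A gene with several probe sets is represented by the one with the highest mean. Named are all members, the lowest and highest change of each pathway list, ALAS1, FECH, HMOX1 and TFRC, and the 10 genes most like ALAS2 by each measure. SLC4A1 and CA2, also in that rule, were not analysed here. CD8A, KLRK1, S100A8 and S100A9 were named after their values were seen. Symbols come from the probe table (1 gene for 10099 probe sets, several for 198, 13826 not listed), and neighbouring genes from RefSeq's Sscrofa11.1 table. Correlations with the GAPDH difference were chosen after seeing the data, with exact permutation tests adjusted over all 63 relations computed. Alternatives were no replicate block, a random effect for pig, centring, quantile normalization or muscle marker scaling, a filter on dim probe sets, the mean of all probe sets of a gene, another variance model, the GAPDH covariate, leaving out each pig, and either label set by itself, and, chosen after seeing the data, rounding to 2 decimals and an unmoderated paired test.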

Additional observations from a re-analysis of the deposited data

Results flagged for a closer look

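Of 69 groups of 9 values looked at among the named genes, 10 held a value far from the other 8 by Dixon's criterion. About 3.45 would be expected for independent groups of normal values. The groups are not independent, because each change is computed from the failure and baseline levels of the same probe set. No excess over chance is therefore read from the 10. Among the members the only such value was the change of ALAS2 in pig 14 (-0.11, the other 8 pigs from -1.82 to -0.99). In that pig the AHSP and HBM changes were also closest to 0 (-0.07 and -0.04).

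Pig 5, which had the highest GAPDH 3' minus 5' difference in failure and at baseline, gave 5 of the 10. FECH stood at 8.84 in failure (others 9.57 to 9.88) and at 9.12 at baseline (others 9.54 to 9.94), PPOX at 7.61 in failure (others 7.86 to 8.05), and STRADB at 9.54 in failure (others 10.81 to 11.30) and at 10.29 at baseline (others 11.10 to 11.55). The part of RNA quality in these values was not tested.

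The remaining values were the baseline level of EPB41 in pig 8 (8.29, others 7.56 to 7.89), the pig with the highest baseline ALAS2, AHSP and HBM, that of HPX in pig 14 (6.05, others 5.28 to 5.64) and that of TFRC in pig 11 (4.41, others 3.78 to 4.01). KLF1 changed by 0.50 in pig 11 (other pigs -0.19 to 0.12).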

How the results depend on the processing

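Of 144 alternative values for the changes of the 7 member probe sets, 0 turned a called direction and 1 moved beyond the replicate spread, that of FAM46C as the mean of its 2 probe sets (-0.36). This count is not a test of robustness. Dropping the block, the random effect, the other variance model and the filter leave a mean change as it is, and rounding barely moves it. Leaving out 1 pig can move it only by a part of the replicate spread, and only called members could turn. When each pig was left out, the change ranged from -1.41 to -1.20 for ALAS2, from -1.33 to -1.07 for AHSP, from -0.93 to -0.72 for HBM, from -0.31 to -0.17 for HBB and from -0.55 to -0.44 for HBE1; the call over all probe sets was kept in 9 of 9 such fits for ALAS2, 8 for the brighter FAM46C probe set, 4 for AHSP and 2 for HBM. The call was lost without pig 9 for FAM46C, without pig 9, 10, 11, 12 or 13 for AHSP and also without 5 or 6 for HBM, and HBE1 gained it without pig 14. In label set 1 alone ALAS2 and AHSP passed, the mean of both FAM46C probe sets did not pass, and centring, quantile normalization, muscle marker scaling, the filter and rounding kept the 4 calls. As the members were chosen from this contrast, nothing is read from calls that were kept, lost or gained. The count of 16 probe sets past the threshold was 0 without the replicate block (440 at an unadjusted p under 0.05), 9 for probe sets above the median level, 10 with trend and robust eBayes, 9 with the GAPDH covariate, 3 in label set 1 alone, 0 in label set 2 alone (1211 unadjusted) and 0 in the unmoderated paired test (1431 unadjusted). It was between 2 (without pig 10) and 26 (without pig 8) when each pig was left out, with 9, 3, 4, 4 and 5 without pigs 5, 9, 11, 12 and 13. The baseline difference of the label sets gave 5 probe sets, and 0 to 2 when each pig was left out. Counts of 0 for the response of the label sets and for the pathway genes were 0 under each alternative run. Signs turned for pathway genes with changes near 0, none of which passed: NGB was -0.0020 after quantile normalization and -0.12 in label set 2, CYGB 0.0108 relative to the muscle markers, FECH 0.0249, SELENBP1 -0.0234 and TFRC -0.0036 with the GAPDH covariate, TFRC -0.0141 in label set 1, and BCL11A 0.0302, PPOX -0.0054, RHCE -0.0251 and SELENBP1 -0.18 in label set 2. Leaving out each pig gave -0.0479 to 0.0545 for NGB, -0.0138 to 0.0410 for TFRC, -0.0160 to 0.146 for SELENBP1, -0.0621 to 0.0018 for CYGB, -0.0191 to 0.0670 for KLF1 and -0.0127 to 0.0787 for RHCE. The cause of these differences was not tested, except that fewer probe sets or animals entered some of the fits.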
